A study of Mus musculus with 8 samples.

Results

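The border-associated macrophage markers described here are 8 genes, Mrc1, Stab1, Lyve1, Cd163, F13a1, Pf4, Cbr2 and Folr2, taken by gene symbol from a table of 37447 genes. Each symbol matched 1 row, and 7 of the 8 had a value in all libraries, while F13a1 had a missing value in 1 library of each genotype. The RNA came from cells sorted as microglia from the optic nerves of C57BL/6 mice at 3 months of age. FFC mice were Nf1 flox/flox and carried GFAP-Cre, a recombinase under the promoter of the astrocyte gene Gfap, which directs the deletion of Nf1 to cells that use that promoter rather than to microglia. FF mice were Nf1 flox/flox without Cre, and thus share the floxed alleles. There were 4 libraries of each genotype, 2 from females and 2 from males, which the labels call biological replicates. The sources used here do not say whether a library came from 1 animal or from several, so p-values measure the spread between these libraries only. Levels are FPKM, which divides the fragments of a gene by its length and by the size of the library, and differences are of mean log2(FPKM + 1), FFC minus FF.

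Macrophages of the brain's borders live in the meninges, the perivascular spaces and the choroid plexus, outside the parenchyma that microglia occupy. They take up proteins, lipids and debris from blood and cerebrospinal fluid, and are told apart from microglia by endocytic receptors such as the mannose receptor and CD163, which resting microglia make little of. A sort for microglia that rests on shared myeloid surface proteins can hold both cell types. In a bulk library, fewer cells of a type and less RNA per cell cannot be told apart. None of the 8 genes is made by these macrophages alone: Pf4 and F13a1 are also products of platelets and their precursors, and Stab1 and Lyve1 of some endothelial cells.

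Promoters are shown for 4 members, for Mrc1, Pf4 and Cbr2 because their levels moved together across libraries and for Stab1 because its genotype difference was the largest below 0. The sequences are RefSeq windows of 300 bases, from 250 before to 50 after the annotated start, in the build GRCm38.p6, written 5′ to 3′ on the strand of the gene. That build differs from mm9, the one of the deposited table. The windows are chr2:14229164-14229463 on the plus strand for Mrc1, chr5:90772185-90772484 on the plus strand for Pf4, chr11:120731972-120732271 on the minus strand for Cbr2 and chr14:31168592-31168891 on the minus strand for Stab1. Capitals mark the letters GAGGAA or, on the other strand, TTCCTC, a core that ETS family factors such as the macrophage factor PU.1 can bind.
Mrc1: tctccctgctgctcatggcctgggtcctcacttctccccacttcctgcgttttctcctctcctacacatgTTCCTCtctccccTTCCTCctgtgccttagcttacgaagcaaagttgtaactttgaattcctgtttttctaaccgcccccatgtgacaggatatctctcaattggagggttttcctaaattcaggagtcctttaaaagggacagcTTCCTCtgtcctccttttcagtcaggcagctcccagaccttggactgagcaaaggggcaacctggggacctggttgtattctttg
Pf4: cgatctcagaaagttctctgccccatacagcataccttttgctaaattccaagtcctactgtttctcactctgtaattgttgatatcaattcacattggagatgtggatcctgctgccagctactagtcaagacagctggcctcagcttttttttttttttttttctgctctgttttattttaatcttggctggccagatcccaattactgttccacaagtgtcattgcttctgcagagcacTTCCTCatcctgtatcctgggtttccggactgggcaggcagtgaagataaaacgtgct
Cbr2: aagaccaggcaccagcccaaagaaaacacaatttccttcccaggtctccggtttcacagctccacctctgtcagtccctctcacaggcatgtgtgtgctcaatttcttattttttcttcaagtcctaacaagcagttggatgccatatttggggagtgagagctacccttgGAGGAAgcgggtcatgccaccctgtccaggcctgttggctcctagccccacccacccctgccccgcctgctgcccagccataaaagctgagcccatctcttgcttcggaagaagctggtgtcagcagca
Stab1: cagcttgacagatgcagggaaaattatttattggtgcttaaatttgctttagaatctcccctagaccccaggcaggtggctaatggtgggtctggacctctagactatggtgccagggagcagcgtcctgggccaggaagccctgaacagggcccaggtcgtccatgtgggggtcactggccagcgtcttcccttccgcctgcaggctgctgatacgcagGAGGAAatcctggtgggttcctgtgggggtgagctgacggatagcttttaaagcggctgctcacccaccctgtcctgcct
The core occurred 3 times in the Mrc1 window and 1 time each in those of Pf4, Cbr2 and Stab1. It was found in 28.3% of all 32851 mouse promoter windows of this length and in 6 of the 9 windows of the members. These belong to 5 of the 7 members that had an entry, the exceptions being Cd163 and Folr2. TGCTGA or TCAGCA, also searched for, was found in 4 of the 9 windows and in 19.5% of all. The letters TATAAA, or TTTATA, were found in 0 of the 9 windows and in 13.6% of all. A match is a description of the letters only.

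The libraries resembled each other loosely. Summed FPKM lay between 530016 and 657367 in FFC and between 370977 and 704266 in FF, and without read counts the depth of each library is unknown. FF 2 and FF 4 had the lowest median Spearman correlation with the other libraries (0.398 and 0.464, against 0.507 to 0.597 in the other 6) and the most signal in receptor genes of smell and pheromone sensing, at 4.52% and 3.56% of summed FPKM where the others had 0.727% to 1.85%. The genotype differences of the members and the counts of the microglial and wider border macrophage lists are therefore also given without these 2 libraries. Defining genes of microglia were present in each library: the 15 microglial markers summed to between 3958 and 8328 FPKM in FFC and between 2208 and 7006 in FF. The 7 members with a value in all libraries summed to 137.5 to 1310 FPKM in FFC and to 814 to 1677 in FF. Both kinds of marker were thus in the sorted material.

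The members were abundant transcripts in these libraries. Averaged over the libraries with a value, Stab1 had 327 FPKM, Pf4 179, Cbr2 143, Mrc1 139, F13a1 55.6, Folr2 52.5, Lyve1 33.9 and Cd163 5.79. Stab1 stood above 98.8% of the 17753 genes tested and Cd163 above 46.2%, and the other 6 members stood above 85.4% to 97.6%. Since FPKM is per length, the order can be read between genes, but most neighbours in it did not hold it in each library: Stab1 was above Pf4 in 5 of 8 libraries, Pf4 above Cbr2 in 6 of 8, Cbr2 above Mrc1 in 3 of 8 and Folr2 above Lyve1 in 4 of 8. F13a1 was above Folr2 in 5 of 6 libraries. The order held throughout for Mrc1 above F13a1, in 6 of 6 libraries, and for Lyve1 above Cd163, in 8 of 8.

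Of the 7 members measured in all libraries, 6 had a lower mean in FFC and 1, Folr2, a higher one. The median difference of the 7 was -0.75, where the median of all tested genes was 0.19 and 43.3% of genes had a lower mean in FFC. A difference below -0.5 was found for 6 of the 7 members and for 27.6% of genes. Lyve1, at -0.53, lay just beyond that cutoff. Without FFC 3, Stab1 (-1.36), Mrc1 (-0.79) and Cd163 (-0.59) stayed below it, and Lyve1 (0.015), Pf4 (-0.20) and Cbr2 (-0.20) did not. None of the members was called: 0 of 8 passed an adjusted p of 0.05 with limma, as did 0 of all 17753 genes (0%), of which 1146 (6.46%) had an unadjusted p under 0.05. At that unadjusted threshold 1 member, Stab1, was lower, and 1.94% of all genes were. The values of FFC and FF libraries overlapped for 8 of 8 members, and 1.29% of all genes were lower in FFC without overlap. Permuting the libraries between genotypes (exact, two-sided, 70 arrangements, smallest possible p = 0.0286) gave p = 0.0857 for Stab1, 0.114 for Mrc1, 0.171 for Cd163 and 0.371 to 0.543 for the other 4 members with all values.

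**Figure D1:**
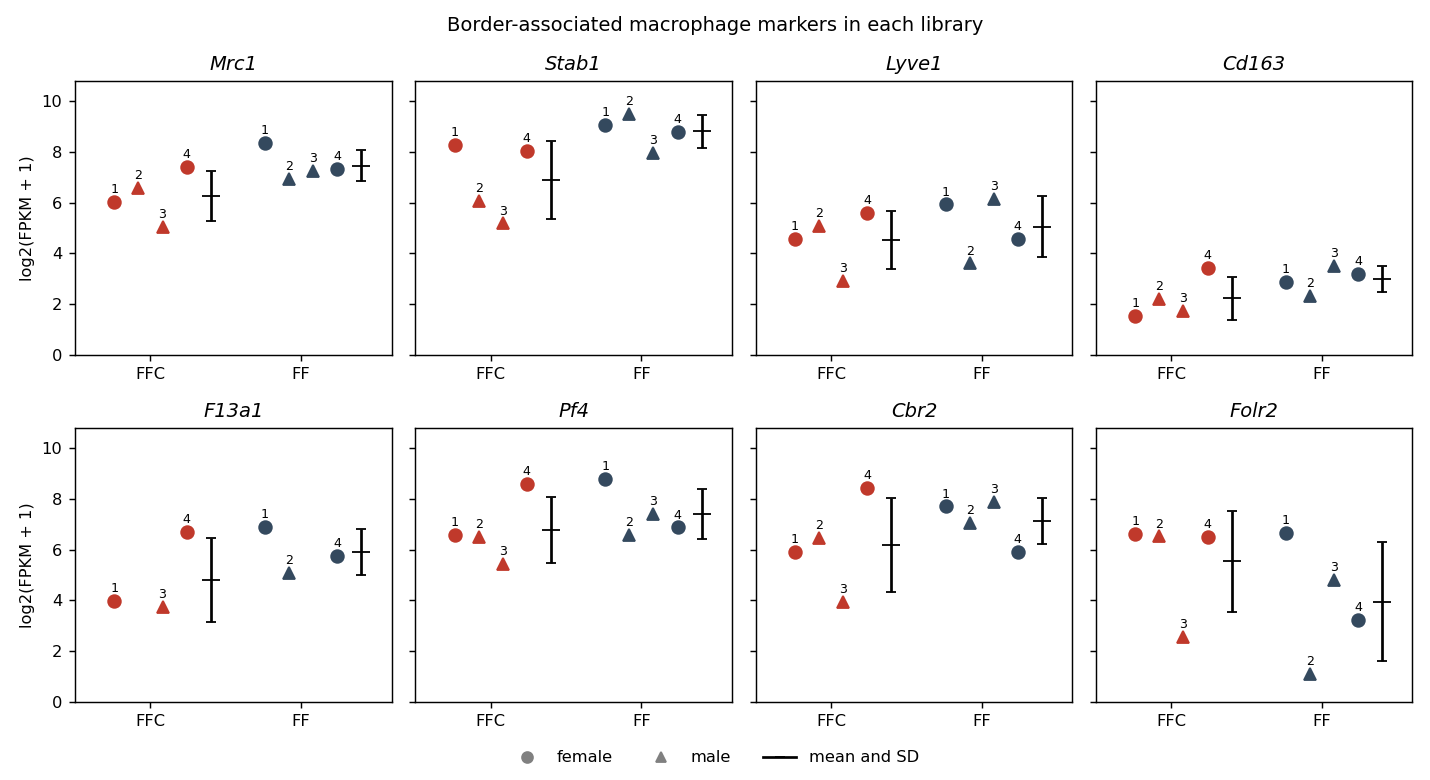
Each panel shows 1 member, with log2(FPKM + 1) on the vertical axis, FFC libraries in red and FF libraries in dark blue (circles female, triangles male, numbers the replicate), and the mean and SD of each genotype as a bar to the right of its points. FFC 3 is the lowest library for 5 of the 7 members with all values, FFC 4 and FF 1 are among the highest for most, and the genotypes overlap in each panel.

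The scavenger receptors Stab1 and Mrc1 had the largest differences below 0, and that of Cd163 was smaller. Stab1, which encodes stabilin-1, an endocytic receptor that clears modified lipoproteins and matrix fragments (ENSMUSG00000042286; mm9 chromosome 14, 31952199 to 31981827), had 311, 65.3, 35.3 and 265 FPKM in FFC 1 to FFC 4, against 535, 716, 247 and 439 FPKM in FF 1 to FF 4. The 2 male FFC libraries were the lowest of the 8, and FF 3 lay below FFC 1 and FFC 4. The difference was -1.93 ± 0.70 (SE; limma adjusted p = 0.712). Mrc1, the mannose receptor CD206, a lectin that takes up glycoproteins (ENSMUSG00000026712, chromosome 2, 14151041 to 14253684), had 63.9, 95.4, 32.3 and 168 FPKM in FFC, against 324, 121, 152 and 160 FPKM in FF. FFC 1, FFC 2 and FFC 3 lay below the lowest FF library, and FFC 4 above 3 of the FF libraries. The difference was -1.20 ± 0.61 (SE; adjusted p = 0.759). Cd163, the receptor for haemoglobin bound to haptoglobin (ENSMUSG00000008845, chromosome 6, 124254669 to 124280545), was the least abundant member, at 1.91, 3.61, 2.33 and 9.68 FPKM in FFC, against 6.39, 3.97, 10.3 and 8.15 FPKM in FF. Again FFC 1, FFC 2 and FFC 3 lay below the lowest FF library while FFC 4 was among the highest 2 libraries, and the difference was -0.75 ± 0.78 (SE; adjusted p = 0.784).

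The hyaluronan receptor Lyve1 and the folate receptor Folr2, both on chromosome 7, went opposite ways in the means. Lyve1 (ENSMUSG00000030787, 117994121 to 118006467) had 22.7, 32.4, 6.43 and 46.7 FPKM in FFC, against 59.8, 11.1, 69.1 and 22.5 FPKM in FF. Its low libraries were FFC 3 and FF 2, so each genotype held one, and the difference was -0.53 ± 0.80 (SE; adjusted p = 0.860). The Lyve1 difference was 0.015 without FFC 3, -1.01 without FF 2 and -1.50 without FF 2 and FF 4. Folr2, which encodes folate receptor beta, a surface protein of some tissue macrophages (ENSMUSG00000032725, 108988512 to 108993831), had 96.9, 91.2, 4.82 and 89.4 FPKM in FFC, against 101, 1.16, 26.8 and 8.34 FPKM in FF. Of the FFC libraries, 3 were nearly equal and FFC 3 stood far below them, while in FF only FF 1 reached that level. The difference was 1.59 ± 1.19 (SE; adjusted p = 0.759), and it was 2.60 without FFC 3, 2.50 without FF 1, 0.65 without FF 2 and -0.19 without FF 2 and FF 4 together.

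The secreted products and the enzyme were also low in FFC 3 and high in FFC 4. Pf4, platelet factor 4, a CXC chemokine also called CXCL4 (ENSMUSG00000029373, chromosome 5, 91201461 to 91202407), had 94.9, 89.3, 42.3 and 383 FPKM in FFC, against 442, 94.9, 169 and 117 FPKM in FF. FFC 4 and FF 1 were the 2 high libraries, 1 in each genotype, and the difference was -0.64 ± 0.72 (SE; adjusted p = 0.800); it was -0.20 without FFC 3, -0.18 without FF 1 and -1.25 without FFC 4. Cbr2, a carbonyl reductase (ENSMUSG00000025150, chromosome 11, 120590803 to 120593428), had 59.6, 86.3, 14.2 and 349 FPKM in FFC, against 209, 133, 235 and 58.8 FPKM in FF. Both the highest and the lowest library were FFC, and the difference was -0.95 ± 0.85 (SE; adjusted p = 0.760), with -0.20 without FFC 3 and -1.71 without FFC 4. F13a1, the catalytic subunit of the fibrin crosslinking factor XIII (ENSMUSG00000039109, chromosome 13, 36959047 to 37142113), had no value in FFC 2 and FF 3. It had 14.6, 12.4 and 103 FPKM in FFC 1, FFC 3 and FFC 4, against 117, 32.9 and 52.9 FPKM in FF 1, FF 2 and FF 4. Fitted on those 6 libraries, in a fit of the 17853 genes with at least 2 values per genotype, its difference was -1.10 ± 0.94 (SE; adjusted p = 0.759), and it was -0.57 without FFC 3 and -2.05 without FFC 4. An exact two-sided permutation test of 3 against 3 libraries gave p = 0.3, where 0.1 is the smallest it can give.

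**Figure D2:**
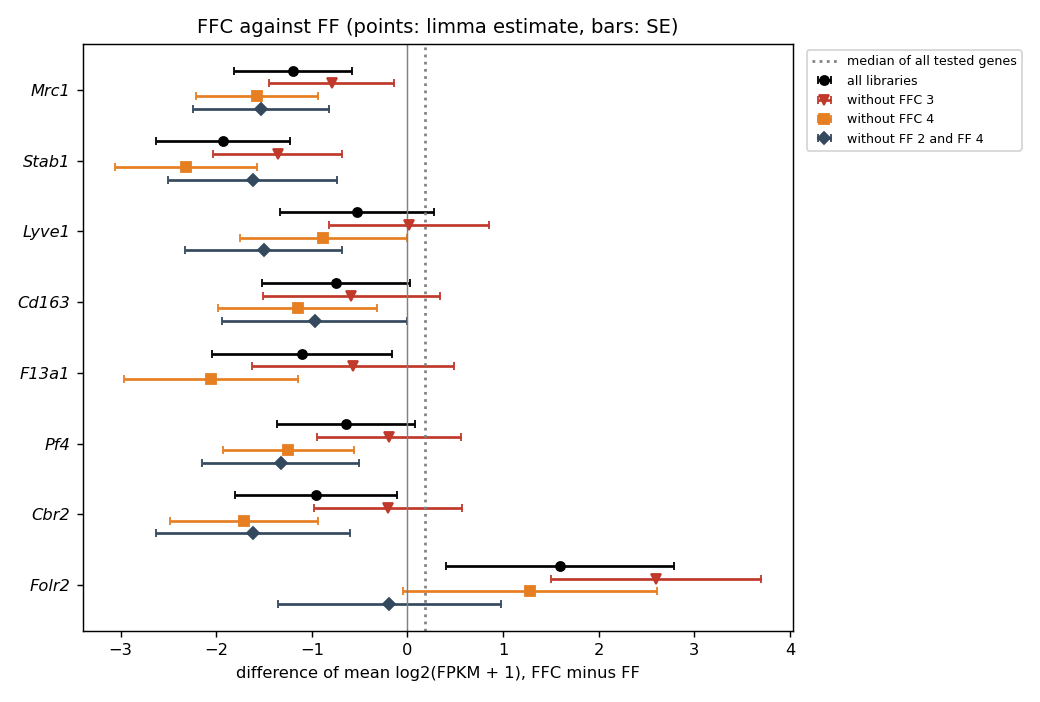
Differences of mean log2(FPKM + 1), FFC minus FF, are on the horizontal axis for each member, as limma estimates with SE bars, for all libraries and without FFC 3, without FFC 4 or without FF 2 and FF 4. The dotted line is the median of all tested genes, 0.19; Stab1 and Mrc1 stay below 0 in each of the 4 fits, while Lyve1 reaches 0.015 without FFC 3 and Folr2 -0.19 without FF 2 and FF 4.

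Among the FFC libraries, FFC 3 had the lowest and FFC 4 the highest mean of the members. Over all libraries, FFC 3 held the lowest value of 5 of the 7 members and 1 of the lowest 2 values of all 7. FFC 4 held 1 of the highest 2 values of 4 members, and FF 1 of 5. Without FFC 3 the median member difference was -0.20, with 5 of 7 members lower in FFC, and without FFC 4 it was -1.25, with 6 of 7 lower. Without FF 2 and FF 4 it was -1.50, with 7 of 7 lower, where the median of all genes was 0.08. In that fit Stab1 differed by -1.62, Cbr2 by -1.61, Mrc1 by -1.53, Pf4 by -1.33 and Cd163 by -0.97. Scaling changed it less: it was -0.99 after upper-quartile scaling and -0.99 after quantile normalization, with 6 of 7 lower each time, and the median of all genes was then 0.02 and 0.03. The 15 microglial markers went the other way in the means, with 12 higher and 3 lower in FFC (median 0.44) and 10 higher and 5 lower after either scaling, but 3 were higher and 12 lower without FF 2 and FF 4 (median -0.11). The mean log2(FPKM + 1) of the 7 members minus that of the microglial markers was -1.51, -2.20, -4.00 and -1.67 in FFC 1 to FFC 4, against -1.08, -1.21, -1.74 and -1.51 in FF 1 to FF 4. FFC 1 and FFC 4 lay within the FF range on this measure, and FFC 2 and FFC 3 below it.

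Most members moved together from library to library, with Stab1 and Folr2 the loosest. Among the 21 pairs of the 7 members, Pearson's r of log2(FPKM + 1) over the 8 libraries had a median of 0.71 and ranged from -0.05 to 0.88, and 11 pairs were above 0.7. Over all pairs of tested genes the median was 0.01 and 4.25% were above 0.7. The closest pair was Mrc1 and Pf4 (0.88), followed by Pf4 and Cbr2 (0.86). Leaving out Folr2 and Stab1, the 10 pairs of Mrc1, Lyve1, Cd163, Pf4 and Cbr2 lay between 0.69 and 0.88. Those 2 members held the lowest r in these same libraries, so this range follows in part from leaving them out. Spearman's rho was 0.90 for Mrc1 and Pf4, 0.67 for Mrc1 and Cbr2 and 0 for Stab1 and Lyve1. Folr2 was the loosest, at -0.05 with Stab1 and 0.12 with Cd163 but 0.72 with Lyve1. After subtracting the mean of each genotype, Folr2 correlated with Lyve1 at 0.92 and with Mrc1 at 0.80, and the Mrc1 and Pf4 pair stood at 0.94. Stab1 then had the lowest values, 0.07 with Cd163 and 0.24 with Lyve1. The members of a pair share each library and its composition, so these are descriptions of 8 libraries.

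**Figure D3:**
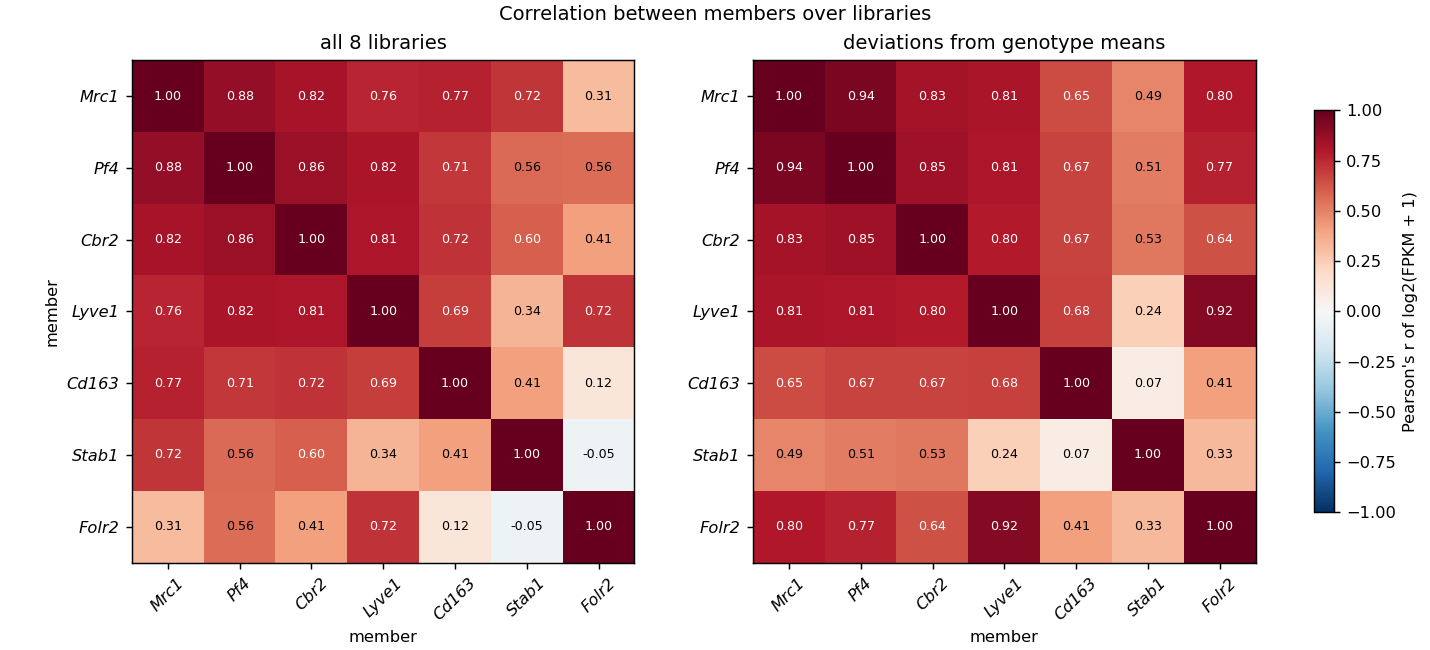
Pearson's r between members over 8 libraries, from log2(FPKM + 1) as measured (left) and after subtracting genotype means (right), on a scale from -1 to 1. Mrc1, Pf4, Cbr2, Lyve1 and Cd163 form a block of 0.69 to 0.88 on the left, and Folr2 joins Mrc1 and Lyve1 on the right, at 0.80 and 0.92.

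The genes whose levels most resembled the mean of the members over the 8 libraries were Chchd5, a mitochondrial protein (Pearson's r = 0.95, Spearman's rho = 0.86), Dpy19l3 (0.91 and 0.86), the laminin receptor integrin Itga6 (0.89 and 0.90), the Notch coactivator Maml3 (0.89 and 0.81) and Znhit3 (0.88 and 0.81). They are the top 5 above a mean of 5 FPKM. Over the 17753 tested genes the median r was 0.02 and the 99th percentile 0.72. Itga6 had 40.9, 56.6, 35.9 and 146 FPKM in FFC, against 153, 62.0, 95.5 and 64.0 FPKM in FF. It thus shared with Pf4 the high libraries FFC 4 and FF 1 and the low library FFC 3.

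Sex was the other labelled condition. All 7 members with a value in each library had a higher mean in females than in males, and the median of these log2 differences was 0.82, while 48.5% of all tested genes were higher in females. The libraries with the highest mean log2(FPKM + 1) of the members, FF 1 (7.06) and FFC 4 (6.85), were female, and the lowest, FFC 3 (3.82), was male. How far the sex differences of the members rest on these single libraries was not tested. None of the members passed: limma with genotype as a covariate called 0 of 17753 genes (0%), with 709 (3.99%) at an unadjusted p under 0.05. The same fit called 3 genes without FF 4, 4 without FF 2 and 5 without both. The sex labels were not checked against sex-linked genes. The differences were 2.01 ± 1.10 for Folr2, 1.38 ± 0.62 for Stab1 and 1.23 ± 0.66 for Pf4 (female minus male, SE; adjusted p = 0.953 for each). Stab1 was again the 1 member with an unadjusted p under 0.05, as were 1.43% of all genes on the side higher in females. By sex, the genotype difference of Stab1 was -0.75 in females and -3.10 in males, and that of Cbr2 was 0.38 in females and -2.29 in males. That of Mrc1 was -1.13 in females and -1.27 in males, and that of Folr2 was 1.61 in females and 1.58 in males. Both male FF libraries are named for November and both male FFC libraries for December. In males, and so in the interaction of genotype and sex, genotype cannot be told apart from month. The interaction of genotype and sex called 0 of 17753 genes with limma (0%; 567 or 3.19% at an unadjusted p under 0.05), and for Stab1 and Cbr2 it was 2.35 and 2.67 (unadjusted p = 0.0630 and 0.137, adjusted p = 0.9995 for both).

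The months in the library names are unevenly spread over the genotypes: FFC 1 and FF 1 to FF 3 are named for November, and FFC 2 to FFC 4 and FF 4 for December. Within November the member median was -1.01, with 6 of 7 lower in FFC 1 than in the mean of the 3 FF libraries. Within December it was -0.05, with 5 of 7 lower in the 3 FFC libraries than in FF 4. Stab1 differed by -0.55 within November and by -2.35 within December, Mrc1 by -1.49 and by -0.99, and Folr2 by 2.42 and by 1.97. One genotype had a single library in each month, so neither month gives a spread for both. These single libraries, FFC 1 in November and FF 4 in December, were female, while the other genotype held both of its male libraries. The differences within a month thus also mix genotype with sex. FF 4 was also among the libraries that correlated least with the others. With month as a term the member median was -0.63, and Stab1 had -1.45 (limma adjusted p = 0.652).

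Other genes of border macrophages did not share a direction. Of 26 listed, 25 were in the table and 23 were tested, and 12 of these had a higher and 11 a lower mean in FFC, with a median of 0.09 and 0 called. After upper-quartile scaling 10 were higher and 13 lower (median -0.14), as they were with array weights (-0.23) and without FF 2 and FF 4 (-0.40), while 15 were higher and 8 lower without FF 1 (0.33). The endocytic adaptor Dab2 had 94.8, 169, 72.6 and 235 FPKM in FFC, against 544, 237, 327 and 160 FPKM in FF (difference -1.15 ± 0.57, SE; limma adjusted p = 0.759). FFC 3 was the lowest library for Dab2 too, and FF 1 the highest. The semaphorin and VEGF receptor Nrp1 had 27.4 ± 8.65 FPKM in FFC and 15.8 ± 6.90 in FF (SD, n = 4 each; difference 0.81), and the lectin Clec4n had 0.321, 3.59, 1.25 and 0.347 FPKM in FFC and 31.3, 1.08, 2.59 and 1.20 in FF (difference -1.21). Ms4a7, often used to tell these macrophages from microglia, had 58.8, 28.6, 6.93 and 38.0 FPKM in FFC and 81.3, 3.15, 27.02 and 36.3 in FF, and was chosen after its values were seen.

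Relatives and partners of the members had a mixed direction. Of 15, 11 were tested, and 7 of these had a higher and 4 a lower mean in FFC (median 0.28, 0 called). The split turned to 3 higher and 8 lower without FFC 4 (median -0.18) and to 4 higher and 7 lower with month as a term (-0.44), and the median was 0.84 without FFC 1. The haem oxygenase Hmox1, which breaks down the haem that CD163 brings in with haemoglobin, had 85.5, 30.6, 22.2 and 37.1 FPKM in FFC, against 16.0, 8.26, 10.3 and 6.98 FPKM in FF. The lowest FFC library thus lay above the highest FF library, as for 3.05% of tested genes, and the difference was 1.85 ± 0.67 (SE; limma adjusted p = 0.712). Tgm2, a tissue transglutaminase related to F13a1, had 12.7 ± 6.68 FPKM in FFC and 3.73 ± 2.47 in FF (SD, n = 4 each; difference 1.54, adjusted p = 0.759), and the hyaluronan receptor Cd44 had 18.8 ± 5.87 FPKM in FFC and 9.39 ± 6.03 in FF (SD, n = 4 each; difference 1.06, adjusted p = 0.759). Ppbp, which is on this list and on the platelet list, was lower in FFC (difference -1.28, limma adjusted p = 0.759). Its values are given with the platelet markers.

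Markers of other cells that make some of the members were measured beside them. The 12 platelet markers summed to 11.8 to 127 FPKM in FFC and to 85.4 to 155 in FF, with 2 higher and 5 lower in FFC of the 7 tested. Under the stricter filter at 5 FPKM, 3 platelet markers were tested, 2 higher and 1 lower (median 0.01). Between 2 and 5 of the 12 were listed at 0 in an FFC library and between 1 and 3 in an FF library. Ppbp, another CXC chemokine of platelets, had 0.116, 2.80, 0.379 and 0.0470 FPKM in FFC, against 0.962, 6.36, 13 and 0.0441 FPKM in FF. Gp9 had 0.593, 50.7, 0 and 18.8 FPKM in FFC, where FFC 3 is listed at 0, and 110, 0.775, 86.4 and 53.7 FPKM in FF. The 11 endothelial and lymphatic markers summed to 13.4 to 28.9 FPKM in FFC and to 29.9 to 60.9 in FF, with 2 higher and 5 lower in FFC of the 7 tested. The sums did not overlap, but FFC 1 (28.9) and FF 3 (29.9) nearly met. Of single genes, 1.29% were lower in FFC without overlap, and a like share for sums of lists was not computed. The sums leaned on few genes: Flt1 had 28.7 and Prox1 14.6 FPKM in FF 4, and Prox1 had 14.7 and Cldn5 9.97 FPKM in FFC 1. Under the stricter filter at 5 FPKM, 3 of the 11 endothelial and lymphatic markers were tested, 2 higher and 1 lower (median 0.06). Between 0 and 3 of the 11 were listed at 0 in an FFC library and between 0 and 2 in an FF library. Pecam1 had 3.86 ± 5.65 FPKM in FFC and 11.0 ± 8.43 in FF, and Kdr had 1.54 ± 0.587 FPKM in FFC and 7.63 ± 6.44 in FF (SD, n = 4 each). Stab1, at 35.3 to 311 FPKM in FFC and 247 to 716 in FF, stood above the whole sum of these endothelial markers in each library. Pf4 stood below the platelet sum in FFC 2 (89.3 against 127 FPKM) and FF 2 (94.9 against 98.3 FPKM) and above it in the others. A sum of markers does not measure how much Stab1 or Pf4 RNA such cells give. The 8 monocyte markers with all values summed to 57.5 to 153 FPKM in FFC and to 43.7 to 123 in FF, with 3 higher and 4 lower in FFC of the 7 tested (median -0.45) and 4 higher and 3 lower without FFC 1 (0.49). The part of platelet, endothelial and monocyte RNA in the member values was not tested.

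**Figure D4:**
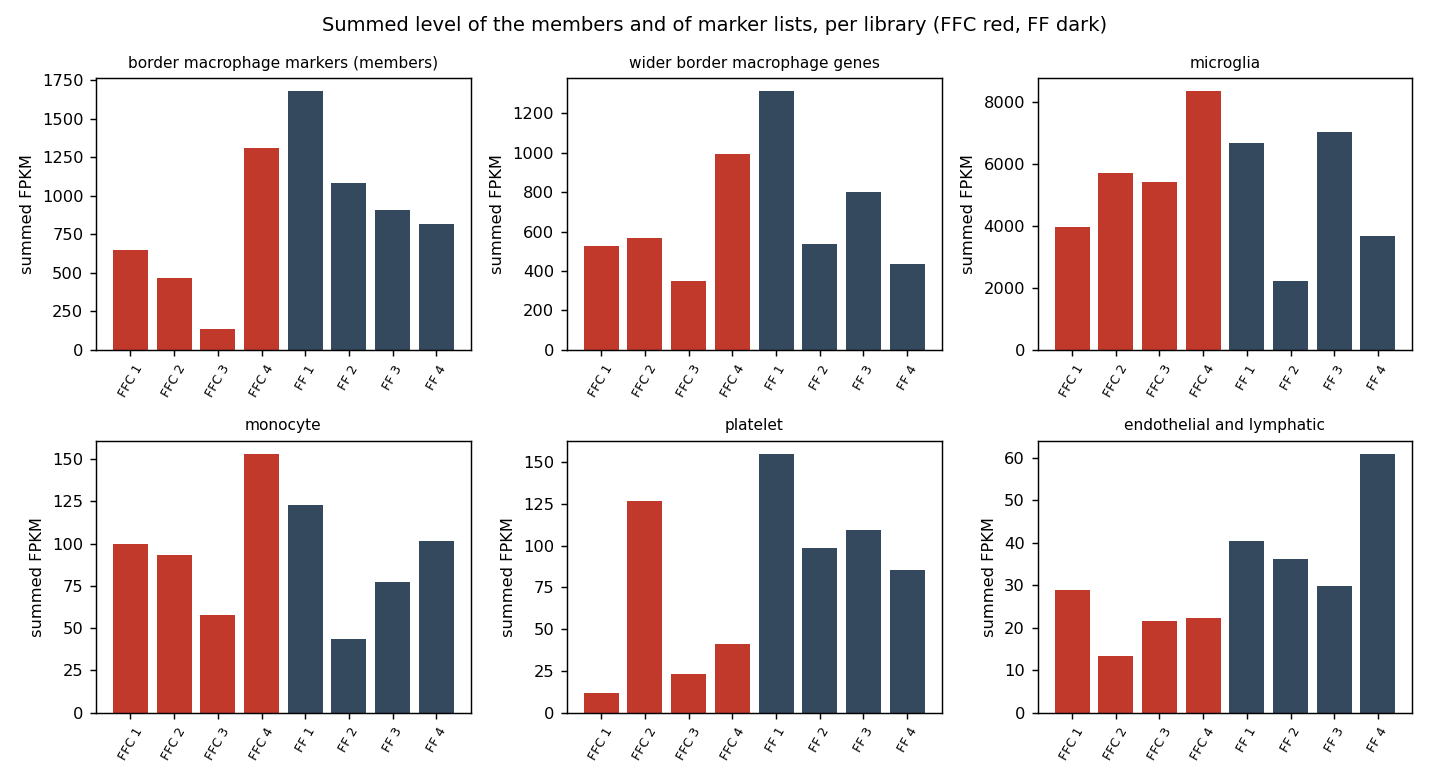
Bars give the summed FPKM of each list per library, with FFC in red left of FF in dark blue, each panel on its own linear axis from 0. The members sum to 137.5 FPKM in FFC 3 and to 1310 in FFC 4, while the microglial sums of those libraries are 5402 and 8328 FPKM, and the endothelial sums of FFC lie below those of FF.

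Other marker lists had more members lower than higher in FFC, with 0 called in each: 5 of 6 neutrophil genes were lower (median -1.71), 4 of 6 dendritic cell genes (-1.35), 4 of 5 mural and fibroblast genes (-1.21), 5 of 5 erythroid genes (-1.15), 5 of 6 T cell genes (-0.57) and 3 of 4 B cell genes (-0.29). Astrocyte genes were lower in 2 of 5 cases (median 0.18). Without FF 1 the T cell and B cell genes turned, each with 3 higher and 1 lower of the 4 then tested (medians 0.12 and 0.27), and the neutrophil median was -0.87. Nf1, the floxed gene, had 56.2, 47.8, 47.7 and 98.3 FPKM in FFC and 27.4, 60.8, 65.2 and 25.5 in FF (limma adjusted p = 0.802), and since Cre is not directed to the sorted cells these values check no label.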

How the data were processed

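RNA-seq of microglia sorted from mouse optic nerve was measured in 4 FFC and 4 FF libraries, grouped by the sample descriptions. The authors deposited FPKM values in a single table of 37447 genes. Cufflinks 2.0.2, TopHat2 2.0.4, Bowtie2 2.0.0, CASAVA 1.8.2 and the genome build mm9 are listed in the submitters' processing notes, without roles or settings. Per the labels' protocols, cDNA was made from the sorted cells' RNA with the Ovation RNA-Seq method.

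Starts in the table count from 0, since 21680 genes then have the length they have in GENCODE M21 and 420 otherwise, and are printed counted from 1. The 447 genes lacking a value in some library were left out, except in a separate fit for F13a1. Tests ran on log2(FPKM + 1) of the 17753 genes that averaged 1 FPKM or more. A pseudocount of 1 understates the fold of low genes. Genotype, and sex with genotype as a covariate, were tested with limma 3.58.1 in R 4.3.3 (two-sided, trended empirical Bayes; p adjusted by Benjamini-Hochberg over all genes, threshold 0.05). The genotype fit was also run on simulated data, with normal values drawn independently for each gene and library. Such data hold no outlying library, and no result here rests on that run. Permutation tests used scipy 1.17.1 and numpy 2.4.6 in Python 3.11.15, tables pandas 2.3.3, and plots matplotlib 3.10.9.

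The members and lists were chosen with earlier results of these data known. Named were all members, up to 4 genes of the wider list and of the relatives, and up to 2 of each other list, by the smallest unadjusted p, with the 5 genes most alike the members, Nf1 and Gfap. Ms4a7 was named after its values were seen. The values of 1 gene of the wider list are not reported here. The genes of the microglial, monocyte, neutrophil, dendritic cell, mural, astrocyte, lymphocyte and erythroid lists are given as counts, medians or sums. Alternatives were pseudocounts of 0.1 and 5, quantile and upper-quartile scaling, a stricter filter at 5 FPKM or none, array weights, robust variances, terms for sex, month or replicate number, and omitting every library in turn. Leaving out FF 2 and FF 4 together and keeping genes with missing values were chosen after the data were seen.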

Additional observations from a re-analysis of the deposited data

Results flagged for a closer look

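In FFC 3, Folr2 stood at 4.82 FPKM while the other 3 FFC libraries had 89.4 to 96.9 FPKM, a gap of 0.972 of the range of the group on the log2 scale. Gfap, the gene whose promoter drives Cre, had 0.310 FPKM in FFC 1 and 0.0778 to 0.0841 in the other FFC libraries (gap 0.970 of the range), and was too low to be tested. These were 2 of 76 sets of 4 libraries examined (1 of 14 for the members), and chance alone marks about 1 in 20.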

How the results depend on the processing

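Of the 8 members, 6 kept the sign of their difference under each alternative that could be run. Ranges over alternatives were -2.39 to -1.36 for Stab1, -1.58 to -0.79 for Mrc1, -1.15 to -0.42 for Cd163, -1.71 to -0.20 for Cbr2, -1.33 to -0.18 for Pf4 and -2.05 to -0.57 for F13a1. F13a1 could not be fitted without FF 2 and FF 4, which leaves 1 FF value. The sign turned for Lyve1 without FFC 3 (0.015; range -1.50 to 0.015, the lowest without FF 2 and FF 4 and -1.01 the lowest with 1 library left out) and for Folr2 without FF 2 and FF 4 (-0.19; range -0.19 to 2.60, and 0.65 to 2.60 with 1 library left out); the cause was not tested. The number of the 7 members higher in FFC was 1 to 2 with single libraries left out and 0 without FF 2 and FF 4, and their median difference ranged from -1.25 to -0.20 with single libraries left out and was -1.50 without FF 2 and FF 4. No member was called under any alternative run (smallest adjusted p = 0.502, for Stab1). The count of all genes called between FFC and FF was 0 to 2 with single libraries left out (1 without FF 1, FF 3 or FFC 4 and 2 without FF 4) and 4 without FF 2 and FF 4. Between the sexes it was 0 to 4 (3 without FF 4, 4 without FF 2) and 5. The deviations of same-numbered libraries had r of -0.05 to 0.03 over genes, within the -0.12 to 0.12 of differently numbered ones. With so few libraries this cannot tell whether same-numbered libraries were paired, and the numbers are used here as names. With the replicate block 0 genes were called by limma, 1014 had an unadjusted p under 0.05, and the member median was -0.75. FPKM gives no depth, and the spread between amplified libraries limits each comparison.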
